A study of Mus musculus with 3 samples.

Results

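Of 24586 DMC1 hotspots mapped in the testis of hybrid mice, 372 carried strong H3K4me3 and little DMC1, and these are called DMC1-weak sites here. They were chosen on the 2 measured signals of the table. A site had to lie on an autosome, to be assigned by the authors to the CAST or the humanized (HUM) allele of PRDM9, and to overlap no H3K4me3 peak that is independent of PRDM9. Its H3K4me3 enrichment had to be at least 20 and its DMC1 signal at most 60, both in the authors' units. The first conditions left 20013 eligible sites, of which 5436 reached the H3K4me3 limit and 9410 were at or under the DMC1 limit. The 372 DMC1-weak sites were 6.84% of the eligible sites with strong H3K4me3 (exact 95% interval 6.19% to 7.55%) and 1.51% of all sites. The remaining 5064 sites with strong H3K4me3 had DMC1 above 60, are called DMC1-strong sites, and are the set against which the DMC1-weak sites are compared.

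The animals were F1 males of a cross between the inbred strains C57BL/6J (B6) and CAST/Eij, with 1 CAST and 1 humanized copy of Prdm9. DMC1 ChIP-seq was made from whole testis of a male aged 10 weeks, and H3K4me3 ChIP-seq from micrococcal nuclease digested chromatin of whole testis of an adult male. Both libraries share this cross and genotype, and no library of an animal without PRDM9 or with another allele pair was analysed here. The allele class and the overlap with independent peaks were taken as the authors gave them. The H3K4me3 values were matched to the library by its title, and whether its reads gave them is not stated. There was 1 library per assay, so a difference between sets of sites has no replicate check. Whole testis holds many cell types besides spermatocytes in meiotic prophase, and the table holds no measure of cell type. Every site was called as a DMC1 peak, so places with H3K4me3 and no DMC1 peak are outside the table.

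PRDM9 is a methyltransferase of meiotic cells that binds DNA through a zinc-finger array and places H3K4me3 on the flanking nucleosomes. A minority of the marked places then receive a double-strand break, made by SPO11. The recombinase DMC1 coats the resected single strands while they search for the homologue, so that DMC1 ChIP signal at a site depends on how often breaks form there and on how long the filament lasts before repair.

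Of the 365 DMC1-weak sites for which gene starts were used, none lay inside a RefSeq promoter window, taken from 250 bases before a gene's start to 50 bases after it. Starts were seldom near eligible sites in general, with 1.26% having one within 1 kb, and the rule left out sites on independent H3K4me3 peaks. For the 2 genes whose starts came nearest to a DMC1-weak site, the window of the nearest start is shown. It gives the DNA closest to a DMC1-weak site that was at hand. Both are on the plus strand of GRCm38.p6, the build that mm10 names, and the capitals mark the bases from the annotated start on. The first is chr1:132341834-132342133, at the non-coding gene F730311O21Rik, with its start 226 bases before a CAST-allele site centred at 132342310 with H3K4me3 of 27.1 and DMC1 of 24.2. The second is chr5:112288493-112288792, at Tpst2, which encodes a tyrosylprotein sulfotransferase, with its start 427 bases before a CAST-allele site centred at 112289170 that had H3K4me3 of 23.3 and DMC1 of 51.6.
F730311O21Rik: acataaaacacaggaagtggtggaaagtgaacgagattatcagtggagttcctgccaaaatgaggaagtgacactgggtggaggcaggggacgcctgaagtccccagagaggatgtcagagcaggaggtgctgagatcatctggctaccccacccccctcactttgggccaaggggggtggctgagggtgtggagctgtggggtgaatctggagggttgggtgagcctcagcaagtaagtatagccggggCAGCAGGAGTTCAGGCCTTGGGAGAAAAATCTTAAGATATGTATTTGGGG
Tpst2: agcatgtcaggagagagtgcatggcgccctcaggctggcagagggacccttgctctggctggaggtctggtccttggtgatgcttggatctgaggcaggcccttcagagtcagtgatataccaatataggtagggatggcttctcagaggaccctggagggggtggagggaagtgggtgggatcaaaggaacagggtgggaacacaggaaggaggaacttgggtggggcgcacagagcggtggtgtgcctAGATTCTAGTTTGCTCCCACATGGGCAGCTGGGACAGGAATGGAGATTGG
The F730311O21Rik window had a GC content of 54.7% and the Tpst2 window 58.0%, and each held 3 CG dinucleotides. Over all 32851 promoter windows of the table the median GC content was 52.7% and the median number of CG dinucleotides was 7. Neither window held, on either strand, the published 13-base motif of the human PRDM9 B allele. That motif stood in 6.29% of all promoter windows. Both sites are of the CAST allele and lie outside the windows shown, so the absence of the motif says nothing about PRDM9 binding at them. The DNA at the centres of the DMC1-weak sites was not analysed here.

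The signals that chose the sites are given as a description. The DMC1-weak sites had a median DMC1 signal of 40.9 (quartiles 30.3 and 51.2, range 8.63 to 59.8), against a median of 269 at DMC1-strong sites. Their median H3K4me3 enrichment was 24.7 (quartiles 22.0 and 30.2, range 20.03 to 96.1), against 30.4. The ratio of DMC1 to H3K4me3 had a median of 1.58 at the DMC1-weak sites and 8.30 at the DMC1-strong sites, and the lowest ratio was 0.153. Many of the sites therefore lie close above the H3K4me3 limit, and a small tail carries H3K4me3 well beyond it.

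**Figure D1:**
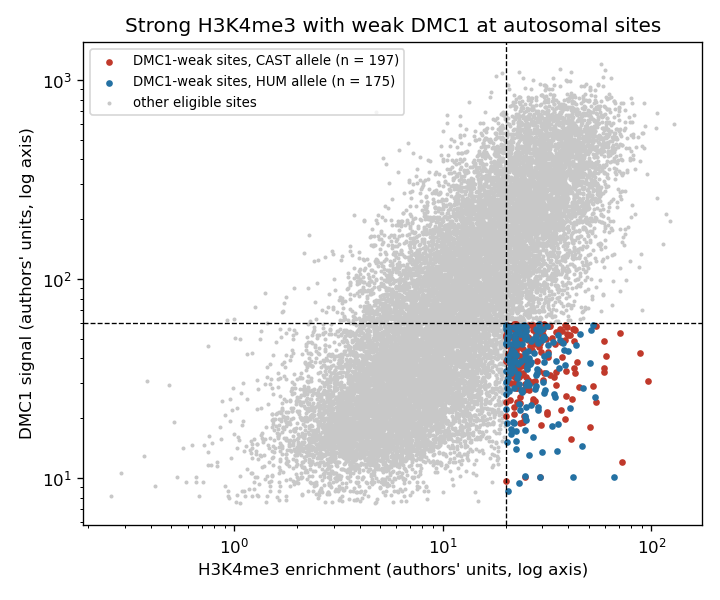
H3K4me3 enrichment (x axis) against DMC1 signal (y axis) for the 20013 eligible sites, both in the authors' units on log axes, with dashed lines at the limits of 20 and 60. The 197 CAST (red) and 175 HUM (blue) DMC1-weak sites fill the lower right corner, with H3K4me3 up to 96.1.

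Sites at the limits differ little from those just beyond them. The lowest H3K4me3 among DMC1-weak sites was 20.03, at HUM sites inside Unc13b and near Ric1, followed by 20.04 at a CAST site inside Siglec1. Just outside the limit lay a site near the olfactory receptor gene Olfr1371, with 19.996, a site inside Ephb1 with 19.96 and a site inside Faf1 with 19.95. The highest DMC1 signals among DMC1-weak sites were 59.8 inside Fbxw22, 59.7 inside Tpx2 and 59.6 near Ubl3. Sites inside Trerf1, Abr and Oasl1, each with 60.3, fell just outside.

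The strongest H3K4me3 of the set was at chr8:84309529, a CAST-allele site 29.1 kb from Cacna1a, which encodes the pore subunit of a neuronal calcium channel. It had H3K4me3 of 96.1 and DMC1 of 30.7. A CAST site at chr1:181070610, 9.85 kb from 9130409I23Rik, followed with H3K4me3 of 88.3 and DMC1 of 42.7. At chr3:58251807, 163 kb from the nearest coding gene Tsc22d2, a CAST site had H3K4me3 of 72.0 with DMC1 of 12.1. Of the 10 sites with the highest H3K4me3, 9 were of the CAST allele, and 1 lay inside a coding gene, the CAST site at chr14:10467679 in Fhit (H3K4me3 59.5, DMC1 34.1). The others of that group lay near Rab11fip2, Pramel12, Slc22a30, Cadm2 and Gm9222, with H3K4me3 between 54.5 and 71.1. The 1 HUM site among them, at chr17:8101405 and 27.2 kb from the ribonuclease gene Rnaset2a, had H3K4me3 of 66.0 and DMC1 of 10.1, which is the lowest ratio of all. The lowest DMC1 signal of any eligible site was 7.54, so the values of 10.1 and 12.1 lie near the bottom of the range. No DMC1 B6 share was given at the chr3 or the chr17 site. For the chr8, chr1, chr3 and chr17 sites the nearest other site lay 3.0, 7.6, 7.7 and 2.0 kb away. For the rest of the 10 it lay 26.1 to 193.8 kb away. Whether a near site adds to these H3K4me3 values was not tested. Beside the 10, 53.0% of the whole DMC1-weak set were of the CAST allele and 43.0% lay inside coding genes. With H3K4me3 of at least 25 these shares were 53.5% and 33.5%.

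Among HUM sites the next highest H3K4me3 values stood inside genes. A site in Plcg2, which encodes a phospholipase C of immune cells, had H3K4me3 of 53.7 and DMC1 of 25.7. A site in Shkbp1 had H3K4me3 of 52.5 and DMC1 of 59.1. The fourth HUM site, at chr15:79588477, lay inside Dmc1 itself, 16.6 kb from its start, with H3K4me3 of 51.1 and DMC1 of 55.4. The fifth, 74.5 kb from the pluripotency factor gene Sox2, had H3K4me3 of 50.6 and DMC1 of 38.1. Low ratios were also found at sites with lower H3K4me3, such as HUM sites 6.80 kb from Mycbp2 (ratio 0.241) and inside Hacd3 (0.312), and a CAST site inside Stoml3 (0.380). A HUM site inside Stk3, which encodes a kinase of the Hippo pathway, had a ratio of 0.386.

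Both PRDM9 alleles contributed, and the humanized allele did so more often than at DMC1-strong sites. The CAST allele accounted for 197 of the 372 DMC1-weak sites, or 53.0% (47.7% to 58.1%), against 67.4% (66.0% to 68.6%) of DMC1-strong sites. The share was lower at the DMC1-weak sites on 18 of 19 autosomes. Put the other way, 9.57% (8.26% to 11.02%) of the HUM sites with strong H3K4me3 were DMC1-weak, and 5.46% (4.74% to 6.25%) of the CAST sites. These intervals, like the others on shares of sites, are exact Clopper-Pearson intervals that cover counting error only. Sites weak in both marks, with H3K4me3 under 20 and DMC1 at 60 or less, had a CAST share of 50.4%. Over all eligible sites it was 57.0%. A lower CAST share than at DMC1-strong sites was thus not particular to the DMC1-weak set. Overlap with an independent H3K4me3 peak kept a site out of the set. Strong H3K4me3 went with DMC1 of 60 or less at 6.84% of sites without such overlap, and at 375 of 1009 sites with it, or 37.2% (34.2% to 40.2%).

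The next comparison asks on which homologue the marks lay. The B6 share is the part of a site's signal on the B6 chromosome, and was given for H3K4me3 at 332 of the 372 DMC1-weak sites and for DMC1 at 311. These are 89.2% and 83.6% of the sites, against 96.6% and 96.8% of DMC1-strong sites. The rule did not use this measure. H3K4me3 at DMC1-weak sites was close to evenly divided, with a median B6 share of 0.506 (95% interval of the median 0.497 to 0.517), against 0.533 (0.529 to 0.537) at DMC1-strong sites. The DMC1 share had a median of 0.455 (0.429 to 0.477) at DMC1-weak sites, against 0.50 at DMC1-strong sites. Both medians were lower in the DMC1-weak set on 16 of 19 autosomes. The sets differ in their mix of alleles, and by allele the gap stood in the CAST sites. Their median DMC1 share was 0.458 (0.431 to 0.50) at DMC1-weak and 0.542 (0.530 to 0.553) at DMC1-strong sites, and their median H3K4me3 share was 0.516 (0.503 to 0.529) and 0.551 (0.547 to 0.557). For HUM sites the intervals overlapped: the median DMC1 share was 0.440 (0.407 to 0.477) at DMC1-weak and 0.447 (0.438 to 0.453) at DMC1-strong sites, and the median H3K4me3 share was 0.491 (0.478 to 0.512) and 0.50 (0.497 to 0.509). The difference between alleles was not tested. At sites weak in both marks the median B6 share was 0.451 (0.441 to 0.457) for DMC1 and 0.514 (0.510 to 0.519) for H3K4me3. For the CAST sites among them the medians were 0.444 and 0.507. B6 shares below those of DMC1-strong sites were thus not particular to the DMC1-weak set.

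Few DMC1-weak sites were marked on 1 homologue alone. A B6 share of H3K4me3 over 0.9, called B6-only, was found at 7 of the 332 DMC1-weak sites, or 2.11%, where 9.78% of all eligible sites with a share were B6-only. A share under 0.1, called CAST-only, was found at 5, or 1.51%, where the background was 5.14%. Together these 12 sites were 3.61% (1.88% to 6.23%) of the DMC1-weak set, against 14.9% (13.9% to 15.9%) of DMC1-strong sites, and the share was lower on 18 of 19 autosomes. For CAST sites the shares were 2.72% (0.888% to 6.23%) of the DMC1-weak and 17.4% (16.1% to 18.7%) of the DMC1-strong set. For HUM sites they were 4.73% (1.92% to 9.50%) and 9.62% (8.22% to 11.2%), with intervals that overlap. With H3K4me3 limited to under 30 in both sets, the shares were 4.05% of DMC1-weak and 20.4% of DMC1-strong sites. At sites weak in both marks the share was 7.90% (7.33% to 8.51%), with 6.35% for CAST and 9.43% for HUM sites. Over both alleles, a share below that of DMC1-strong sites was thus not particular to the DMC1-weak set. Shares of 0.3 to 0.7, called both-homologue, made up 83.7% of the DMC1-weak set and 70.5% of the DMC1-strong set.

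For DMC1 itself, 26 of 311 DMC1-weak sites were B6-only, or 8.36%, beside a background of 19.5% of eligible sites. A further 13, or 4.18%, were CAST-only, beside a background of 13.9%. The 39 sites were 12.5% (9.07% to 16.7%) of the DMC1-weak set, against 24.7% (23.5% to 25.9%) of DMC1-strong sites. Here the alleles stood apart in value: for CAST sites the shares were 9.71% (5.76% to 15.1%) of the DMC1-weak and 28.4% of the DMC1-strong set, and for HUM sites 16.2% (10.4% to 23.5%) and 17.0% (15.2% to 18.9%). The difference between alleles was not tested, and the HUM intervals overlap. Among sites with both-homologue H3K4me3, 5 of 259 DMC1-weak sites had DMC1 on 1 homologue, or 1.93% (0.630% to 4.45%), against 0.961% (0.663% to 1.35%) of DMC1-strong sites. In that same subset the DMC1 share was below the H3K4me3 share at 65.3% (59.1% to 71.0%) of DMC1-weak sites and at 65.0% of DMC1-strong sites, which is no gap beyond counting error. A share missing for either mark leaves a site out of these counts, and the reads behind a share are unknown.

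**Figure D2:**
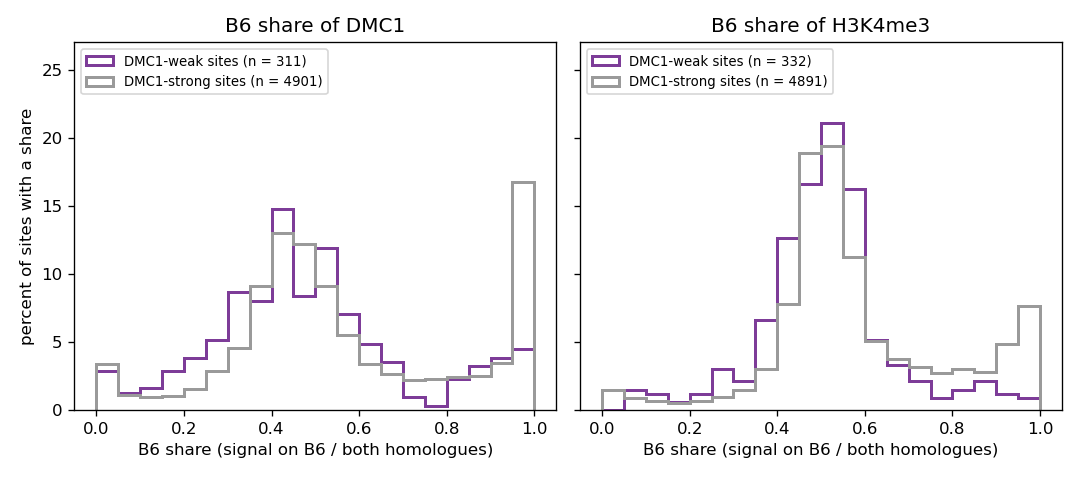
Percent of sites (y axis) by B6 share (x axis, 20 bins) of DMC1 (left) and H3K4me3 (right), for DMC1-weak sites (purple) and DMC1-strong sites (grey). The grey peak at shares above 0.9 is much reduced in purple, where 8.36% of sites are B6-only for DMC1 and 2.11% for H3K4me3.

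Individual sites show how far the marks of a site can part. At a CAST site 79.3 kb from the synaptic adhesion gene Cadm2, the B6 share was 0.119 for DMC1 and 0.691 for H3K4me3. The reverse held at the HUM site near Sox2, with 0.663 for DMC1 and 0.134 for H3K4me3. A HUM site 7.83 kb from Nkx2-1, which encodes a transcription factor of thyroid, lung and forebrain, had a DMC1 share listed at 0 beside an H3K4me3 share of 0.451. A CAST site 70.1 kb from Nek10 had a DMC1 share of 1.0 and an H3K4me3 share of 0.539. Other extreme sites had both marks on the same homologue, as a HUM site near Cd209d (DMC1 0.981, H3K4me3 0.982) and another inside Iqcm (0.983 and 0.982). At the other end lay a CAST site far from genes, 1819 kb from Acvr2a (0.0714 and 0.0704), and a HUM site 204 kb from Satb1 (0.0303 and 0.0758).

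DMC1-weak sites lay inside genes less often. Of the 372, 160 stood inside the body of a protein-coding gene, or 43.0% (37.9% to 48.2%), against 2885 of 5064 DMC1-strong sites, or 57.0% (55.6% to 58.3%). The share was lower at DMC1-weak sites on all 19 autosomes. Sites weak in both marks, with H3K4me3 under 20 and DMC1 at 60 or less, had 52.4%. By allele the shares were 35.03% (28.4% to 42.1%) of CAST DMC1-weak sites against 56.0% (54.3% to 57.7%) of CAST DMC1-strong sites, and 52.0% (44.3% to 59.6%) of HUM DMC1-weak sites against 59.0% (56.6% to 61.4%) of HUM DMC1-strong sites. The intervals of the HUM pair overlap, and the difference between alleles was not tested. Within the set, the 160 sites inside genes had a median H3K4me3 of 23.3 and DMC1 of 45.0, and 43.1% were of the CAST allele. The 212 sites between genes had a median H3K4me3 of 25.2 and DMC1 of 38.9, and 60.4% were of the CAST allele. Exon, intron and UTR could not be assigned from the gene table.

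**Figure D3:**
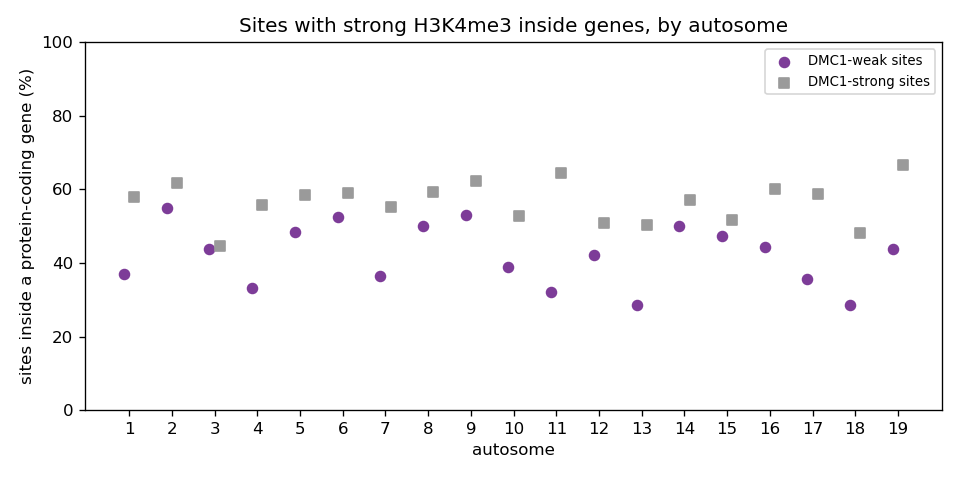
Percent of sites inside protein-coding genes (y axis) on each autosome (x axis), for DMC1-weak sites (purple circles) and DMC1-strong sites (grey squares). The purple circle is below the grey square on all 19 autosomes.

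The lower share inside genes did not come with a greater distance from gene starts. The median distance to the nearest RefSeq start was 27.6 kb (22.8 to 33.7 kb) at the 365 DMC1-weak sites outside chromosome 18, against 29.8 kb at DMC1-strong sites, a gap within the interval. A start lay within 5 kb of 38 DMC1-weak sites, or 10.4%, against 9.49% of DMC1-strong sites. Within 1 kb it was 3 sites, or 0.822%, against 1.42%.

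The 162 genes that hold a DMC1-weak site include 1 with more than 1 of them. Atrnl1, an attractin-like gene on chromosome 19, held 2, a CAST site (H3K4me3 27.1, DMC1 58.6) and a HUM site (H3K4me3 21.9, DMC1 43.2) 23.0 kb apart, which was also the closest pair of the set. It held 2 DMC1-strong sites as well. Over all strong-H3K4me3 sites 6.84% were DMC1-weak, and the listed genes hold few sites to set beside that share. In a list of 24 genes of meiotic breaks and repair, such as Spo11 and Msh4, the site in Dmc1 was the only DMC1-weak one, beside 4 DMC1-strong sites. Rad51b, a repair gene outside that list, also held 1 DMC1-weak site, beside 2 DMC1-strong sites. A list of 12 long neuronal genes, such as Cntnap2, Ptprd and Csmd1, held no DMC1-weak site and 31 DMC1-strong sites. Other neuronal genes outside it, Dscam and Shank2 among them, held 1 DMC1-weak site each. Dscam also held 5 DMC1-strong sites and Shank2 held 2. Rad51b, Dscam and Shank2 were named after their values were seen. A list of 12 axis and synaptonemal complex genes held neither, and 8 spermatid genes held 1 DMC1-strong site only.

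Along the chromosomes a larger part of the DMC1-weak than of the DMC1-strong sites lay near the distal ends, mainly among CAST sites. Mouse autosomes have the centromere at the start of the coordinates and the distal telomere at the other end. In the last 10 Mb of sites on a chromosome lay 56 DMC1-weak sites, or 15.1% (11.6% to 19.1%), against 8.77% (8.003% to 9.58%) of DMC1-strong sites. The share was higher at DMC1-weak sites on 15 of 19 autosomes. For CAST sites it was 17.3% (12.3% to 23.3%) against 8.59% (7.67% to 9.58%). For HUM sites it was 12.6% (8.05% to 18.4%) against 9.13% (7.79% to 10.6%), with intervals that overlap. In the first 10 Mb lay 7 DMC1-weak sites, or 1.88% (0.760% to 3.84%), against 6.20% of DMC1-strong sites. There the CAST shares were 1.02% (0.123% to 3.62%) and 6.48% (5.68% to 7.36%). The HUM intervals overlapped, at 2.86% (0.934% to 6.54%) and 5.63% (4.56% to 6.85%). When each autosome was divided into 10 equal parts between its first and last site, the DMC1-weak sites were 3.18% (1.66% to 5.49%) of strong-H3K4me3 sites in the part next to the centromere and 10.5% (8.25% to 13.1%) in the last part. For the CAST allele the corresponding values were 1.45% and 9.79%. For the HUM allele they were 7.84% and 11.8%, with the highest value of 13.6% in the eighth part and intervals that overlap throughout. The last 2 Mb, a stretch chosen after values were seen, held 24 DMC1-weak sites among 100 with strong H3K4me3, or 24.0% (16.0% to 33.6%), against 6.52% (5.87% to 7.22%) elsewhere. Those 24 sites were on 12 of 19 autosomes. By autosome the DMC1-weak sites numbered 7 to 40 and made up between 3.29% of strong-H3K4me3 sites on chromosome 18 and 10.6% on chromosome 19.

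**Figure D4:**
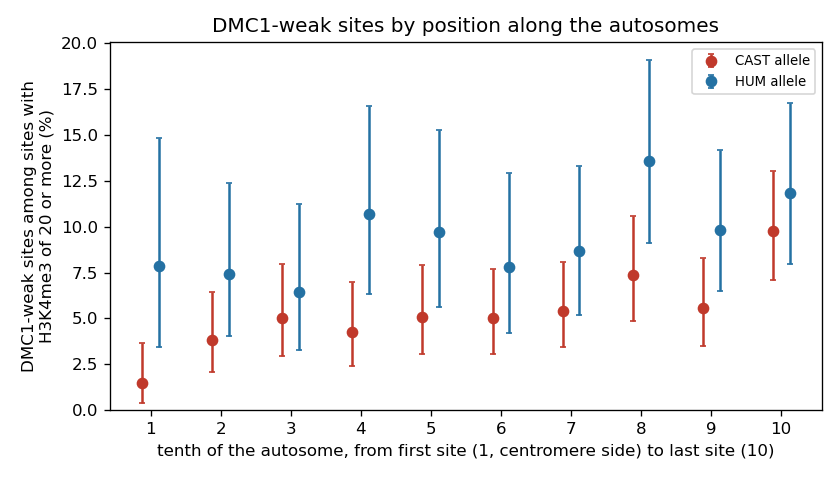
DMC1-weak sites as a percent of all eligible sites with H3K4me3 of 20 or more (y axis) in 10 equal parts of the autosomes (x axis, centromere side first), for CAST (red) and HUM (blue) sites with exact 95% intervals. The CAST values run from 1.45% in the first part to 9.79% in the last, and the HUM values lie between 6.43% and 13.6%.

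Neighbouring hotspots were somewhat sparser around the DMC1-weak sites. The nearest other site was at a median of 35.7 kb (31.6 to 39.6 kb), against 27.8 kb (26.7 to 29.1 kb) for DMC1-strong sites, and farther on 16 of 19 autosomes. Another site lay within 10 kb of 60 DMC1-weak sites, or 16.1% (12.5% to 20.3%), against 22.1% of DMC1-strong sites. A site on an independent H3K4me3 peak lay within 50 kb of 28 DMC1-weak sites, or 7.53% (5.06% to 10.7%), against 10.8% (9.98% to 11.7%).

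The other hotspots of the region also had less DMC1 for their H3K4me3. For each site, the median log2 ratio of DMC1 to H3K4me3 was taken over the other eligible sites within 500 kb, the site itself left out. This was 2.47 (2.36 to 2.52) around 365 DMC1-weak sites, against 2.65 (2.64 to 2.67) around 5045 DMC1-strong sites, and lower on 16 of 19 autosomes. For CAST sites the values were 2.49 around DMC1-weak and 2.65 around DMC1-strong sites, and for HUM sites 2.44 and 2.65. Counting only neighbours of the other PRDM9 allele, the values over both alleles were 2.43 (2.32 to 2.51) around DMC1-weak sites and 2.56 (2.54 to 2.59) around DMC1-strong sites. The sets differ in their mix of alleles. By allele these values were 2.28 and 2.43 around CAST sites, and 2.58 and 2.81 around HUM sites. With the DMC1-weak sites themselves left out of the neighbours of either allele, the values were 2.50 around DMC1-weak and 2.67 around DMC1-strong sites. Windows overlap, so neighbouring sites share part of their value. With all neighbours counted, the gap was wider in the last 10 Mb. There the value was 2.14 (1.90 to 2.41) around the 56 DMC1-weak sites and 2.74 (2.67 to 2.79) around the DMC1-strong sites. Elsewhere the values were 2.50 around DMC1-weak sites and 2.65 around DMC1-strong sites. The neighbours counted here include other DMC1-weak sites, which the rule chose for low DMC1 and which were more frequent in the last 10 Mb. They were left out for the whole set only, so how much they widen the distal gap was not tested.

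**Figure D5:**
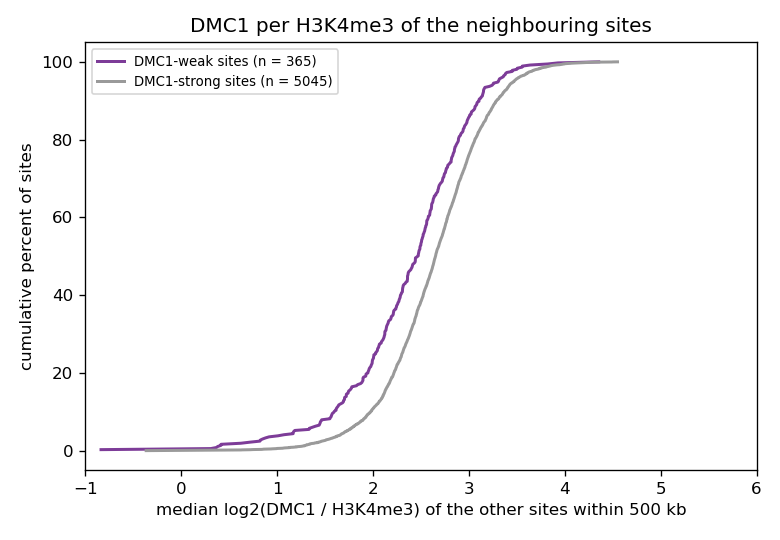
Cumulative percent of sites (y axis) by the median log2 ratio of DMC1 to H3K4me3 of the other eligible sites within 500 kb (x axis), for 365 DMC1-weak sites (purple) and 5045 DMC1-strong sites (grey). The purple line lies left of the grey one, with medians of 2.47 and 2.65.

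The median distance from a DMC1-weak site to the nearest other one was 1.89 Mb (range 0.0230 to 33.3 Mb), and 119 sites, or 32.0%, had another within 1 Mb. Neither this spacing nor the runs below were set beside a like number of DMC1-strong sites, so both lack a background. There were 6 runs of at least 4 DMC1-weak sites within 2 Mb, a measure chosen after values were seen. The run with the most of them closed chromosome 1, where 5 of the 6 strong-H3K4me3 sites between 194378010 and 195306742 were DMC1-weak and the last of them was the final site of the chromosome. The first lay 242 kb from Plxna2, a semaphorin receptor gene, and the others inside or near the complement genes Cd46 and Cr2. They comprised 3 CAST and 2 HUM sites. Their H3K4me3 values in chromosome order were 34.8, 40.5, 36.6, 41.7 and 37.1, and their DMC1 values were 38.9, 52.3, 49.4, 25.02 and 48.9. The 1 DMC1-strong site of the run, inside Plxna2, had H3K4me3 of 48.6 and DMC1 of 119, so that its ratio of 2.45 was also below the DMC1-strong median of 8.30.

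A run on chromosome 16 was complete: all 4 strong-H3K4me3 sites between 97123513 and 97838463 were DMC1-weak. They lay inside the neuronal adhesion gene Dscam, near it, near the protease gene Bace2, and inside Prdm15, a zinc-finger gene of the same family as Prdm9. Their H3K4me3 values were 22.4, 24.6, 34.3 and 38.7, and their DMC1 values 15.4, 39.0, 32.2 and 49.8. The run ended 0.0816 Mb before the last site of the chromosome. Another run near a chromosome end, on chromosome 5 between 148327155 and 149515226, held 4 DMC1-weak sites among 7, near Slc7a1 and Ubl3 and inside Medag and Wdr95. The other runs held 4 of 6 on chromosome 5 around Suds3, Taok3 and Ksr2, 4 of 10 on chromosome 15 near Apol9a and Apol11b and inside Ift27 and Elfn2, and 4 of 10 on chromosome 19 in Atrnl1, Pnlip and Hspa12a.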

How the data were processed

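DMC1 ChIP-seq, H3K4me3 ChIP-seq and MNase-seq were 1 library each; the MNase library was not used here. Reads were aligned to mm10 with BWA, per the submitters' processing notes, version 0.7.15 for H3K4me3 and, for DMC1, a version not given in the sources used here. Per the labels and headers, the deposited DMC1 signal and H3K4me3 signal are intensities from the authors' peak callers, and the deposited B6 fraction is signal on B6 over signal on both homologues, per the file headers. Raw H3K4me3 reads are credited there to Li and colleagues, and the headers do not say whether they are those of this library. Scaling and read depth are unknown.

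Python 3.11.15 with pandas 2.3.3, numpy 2.4.6 and scipy 1.17.1 was used. Genes were 21631 protein-coding bodies of RefSeq GRCm38.p6, and starts came from its promoter table, which was not used for chromosome 18. Medians carry distribution-free binomial intervals. No p-value was computed, since sites of 1 library are not replicates. Interval and distance functions were tested on simulated data. Named sites were the extremes of H3K4me3, ratio and B6 share, the sites at the limits, and sites in listed genes; sites in runs and pairs were chosen after their values were seen. The members and lists were chosen with earlier results of these data known. The distal share, gene starts and neighbour ratio were added after the data were seen.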

Additional observations from a re-analysis of the deposited data

How the results depend on the processing

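Each result was recomputed under up to 12 alternatives, and its difference from DMC1-strong sites kept its direction in all but 1 case: the share in the first or last 10 Mb was 1.97 percentage points higher at DMC1-weak sites and 0.50 points lower with H3K4me3 of at least 15 (15.04% against 15.5%). The results include the number of sites and the number per autosome. Both were far below those of DMC1-strong sites under every setting, so their direction tests nothing. The number of sites was 831 with H3K4me3 of at least 15, 170 with at least 25 and 747 with independent peaks kept, with a median per autosome of 41, 8 and 36 against 18. The share inside genes was 33.5% with H3K4me3 of at least 25, 50.5% with independent peaks kept and 50% with 5 kb flanks. DMC1 on 1 homologue reached 18.1% with independent peaks kept and 22.2% with limits of 0.2 and 0.8, where H3K4me3 on 1 homologue was 9.04%. The distance to a gene start was 15.5 kb with independent peaks kept and 48.1 kb for protein-coding starts. The neighbour ratio was between 2.41 and 2.50 in 12 alternatives. No sites shared an H3K4me3 value within 10 kb, so leaving such sites out removed none. The motif search at the sites needs a genome and was not run. The cause of these shifts was not tested. No paired analysis was possible because each assay has 1 library. The unknown depth limits every single-site value.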

Other observations

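The DMC1 signal was a whole number of steps of 0.125 at 7 of the 372 DMC1-weak sites, or 1.88%, against 0 of 5064 DMC1-strong sites and 173 of 9038 sites weak in both marks, or 1.91%. The 7 include sites among the lowest ratios, such as those near Tsc22d2 (DMC1 12.1), Mycbp2 (10.1) and Sptlc3 (10.1). On the X, 12 further sites met both limits and were not counted.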
